A study of Rattus norvegicus with 58 samples.

Results

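Interleukin-1, IL-6, IL-10 and tumour necrosis factor cytokines were followed through the synovium of arthritic and healthy rats. Members were chosen by name, 6 were looked up by Ensembl identifier in a table of 16879 genes, and 5 were found. The 5 found were Il1b (ENSRNOG00000004649), Il1a (ENSRNOG00000004575), Il1rn (ENSRNOG00000005871), Il6 (ENSRNOG00000010278) and Il10 (ENSRNOG00000004647). Tnf (ENSRNOG00000055156) was not analysed here. The symbols come from the list of members itself, since neither the table nor the reference paired these identifiers with symbols. For the same reason genes of the wider pathway, and markers of synovial or infiltrating cell types, were not analysed here, so the labelled tissue was not checked against markers.

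IL-1β and IL-1α are the agonists of the type 1 IL-1 receptor and drive inflammation and cartilage breakdown in joints. Il1rn encodes the IL-1 receptor antagonist, which occupies the same receptor without signalling. IL-6 acts through gp130 and STAT3 and sustains synovial inflammation and the acute-phase response, whereas IL-10 restrains cytokine production by macrophages. TNF is a principal inducer of the IL-1 and IL-6 genes, and transcription of all of these genes is responsive to NF-κB.

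All animals in the arthritic groups were female DA/OlaHsd rats in which 250 µl of pristane, a hydrocarbon oil, had been given at 6 to 8 weeks of age to produce pristane-induced arthritis (PIA). Treatment began the day after each rear limb had reached a score of at least 3. Arthritic rats received subcutaneous RTD-1 at 5 mg/kg in saline (n = 4 at 1 day, 8 at 3 days and 8 at 5 days) or saline alone (n = 4 at 1 day, 8 at 3 days and 8 at 5 days), and 4 more arthritic libraries were untreated. RTD-1 is rhesus theta-defensin 1, a cyclic antimicrobial peptide that also dampens inflammatory cytokine release. In healthy rats RTD-1 was given for 3 or 5 days (n = 5 each), and 4 libraries came from naive rats. Strain, sex and age are stated in the protocol for the rats in which arthritis was induced. Healthy rats given saline were not among the groups, so RTD-1 and the injection itself cannot be told apart in healthy rats. Every library came from whole synovial tissue, in which more cells of a type and more RNA per cell cannot be told apart.

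Each library held between 464693 and 7716834 reads assigned to genes. Values are given as normalized reads, which are whole reads scaled to a median library factor of 5.75 megareads. The 10 healthy RTD-1 libraries and 3 saline libraries were deeper than the rest, with factors of at least 10 megareads. A member was called near the read floor in a group where its median was under 10 normalized reads. By that limit Il1b, Il1rn and Il6 were near the floor in 3 of 10 groups each, which were the naive and both healthy RTD-1 groups. Il1a and Il10 were near it in 10 of 10 groups.

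The promoters of the 3 measurable genes are shown because those genes were high in the same groups. Each sequence runs 5′ to 3′ on the strand of the gene, from 250 bases before to 50 bases after the annotated start, and was taken from RefSeq on GRCr8. The build behind the read table is not given in the sources used here, so these coordinates locate the printed sequence only. Il1b lies at chr3:137036532-137036831 on the minus strand, Il1rn at chr3:27520072-27520371 on the plus strand and Il6 at chr4:5894526-5894825 on the minus strand. The gene record of Il1rn spans chr3:27509836-27525738, so its window surrounds an annotated start inside the gene, not the first base of the record. The Il1b and Il6 windows surround the first base of their gene records. Capitals mark a match to the 10-base NF-kB consensus, searched on both strands.
Il1b: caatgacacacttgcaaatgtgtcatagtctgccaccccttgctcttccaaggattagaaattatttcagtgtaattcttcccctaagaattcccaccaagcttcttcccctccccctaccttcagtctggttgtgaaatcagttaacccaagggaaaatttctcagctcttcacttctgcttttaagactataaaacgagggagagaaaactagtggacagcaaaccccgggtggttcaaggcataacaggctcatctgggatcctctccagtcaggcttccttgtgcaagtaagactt
Il1rn: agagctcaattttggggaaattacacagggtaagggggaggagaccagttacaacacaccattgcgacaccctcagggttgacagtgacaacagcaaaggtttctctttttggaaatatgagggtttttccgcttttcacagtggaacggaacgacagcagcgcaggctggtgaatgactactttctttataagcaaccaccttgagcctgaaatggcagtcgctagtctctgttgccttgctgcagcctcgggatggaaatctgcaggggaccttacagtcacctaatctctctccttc
Il6: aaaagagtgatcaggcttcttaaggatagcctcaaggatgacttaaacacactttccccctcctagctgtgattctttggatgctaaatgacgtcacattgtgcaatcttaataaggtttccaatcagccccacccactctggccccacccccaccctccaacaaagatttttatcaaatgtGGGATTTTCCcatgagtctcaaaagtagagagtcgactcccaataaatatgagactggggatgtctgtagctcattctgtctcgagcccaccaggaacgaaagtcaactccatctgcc
The Il6 window held 1 match, at position -68 relative to the annotated start, and 4.18% of 33469 rat promoter windows of this length held at least 1. The letters of this consensus were not found in the Il1b and Il1rn windows. A TATAAA motif was present on either strand in 14.2% of all windows. It lay at position -60 in Il1b and, on the opposite strand, at position -64 from the internal start of Il1rn.

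Il1b, Il1rn and Il6 were all much higher in PIA synovium than in naive synovium, and all ranked among the most increased genes measured. The comparison was made with limma over the 13062 genes that reached 10 normalized reads in 4 or more libraries, with Benjamini-Hochberg adjustment over all of them and a threshold of 0.05. These 3 members passed that filter and Il1a and Il10 did not. Passing rested on the arthritic libraries, where the 3 are abundant. At this threshold 39.3% of all genes changed in either direction and 27.8% were higher in PIA, so a call alone does not set the members apart.

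Il1b, the main secreted IL-1 agonist, had 220, 320, 130 and 118 normalized reads in the PIA libraries, against 1.78, 2.88, 0.998 and 8.33 in the naive libraries. Every PIA library lay far above every naive one, and 32.9% of all genes likewise had no overlap between these groups. The means were 197.1 ± 93.7 in PIA and 3.5 ± 3.31 in naive synovium (SD, n = 4 each), and the log2 fold change was 5.60 (SE 0.515, limma adjusted p = 3.14e-12). It was the increase ranked 13 of 13062.

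Il1rn, the receptor antagonist, had 107, 207, 109 and 130 normalized reads in the PIA libraries, against 8, 1.92, 3.99 and 8.33 in the naive libraries. The groups again did not overlap, and the antagonist was higher together with its agonist. Its log2 fold change was 4.50 (SE 0.565, limma adjusted p = 7.25e-09), ranked 37.

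Il6 had 317, 141, 129 and 163 normalized reads in the PIA libraries, against 0, 7.69, 0 and 0 in the naive libraries. In whole reads this was 281, 142, 116 and 170 in PIA, against 0, 8, 0 and 0 in naive synovium, so 1 naive library held every naive read of the gene. Its log2 fold change was 6.68 (SE 0.991, limma adjusted p = 3.81e-07), ranked 6, and its size depends on how 0 reads are treated, with 4.28 to 7.48 over the alternatives tried. The median gene was 0.28 higher in PIA on the log2 scale, and with TMM factors, which bring that median to -0.00, the changes were 5.31 for Il1b, 4.23 for Il1rn and 6.44 for Il6. Over all genes 3637 were higher and 1493 lower in PIA, and 2577 higher and 2576 lower with TMM factors.

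**Figure D1:**
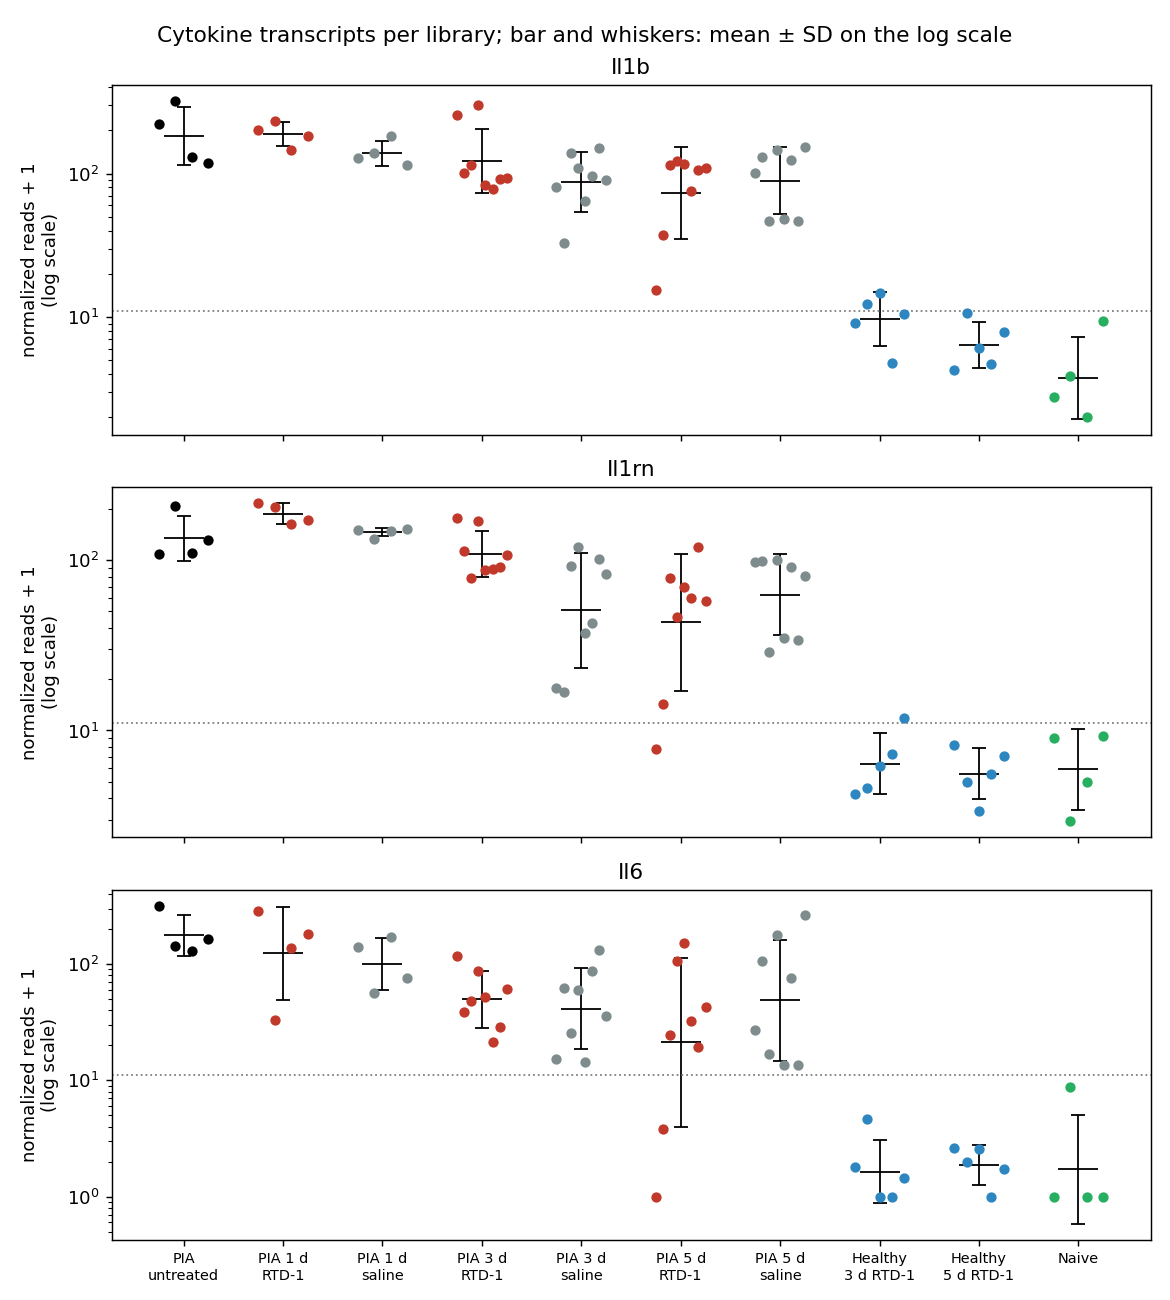
Normalized reads plus 1 on a log axis for Il1b, Il1rn and Il6 in each of the 10 groups. Each point is 1 library, the bar and whiskers are the mean and SD taken on the log scale, and the dotted line marks 10 normalized reads. Naive and healthy RTD-1 libraries sit around or below that line, and arthritic libraries sit above it except for Il1rn and Il6 in low libraries of the 5-day RTD-1 group.

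Il1a and Il10 stayed at the limit of detection whether or not the joint was inflamed. Il1a, the second IL-1 agonist, totalled 60 reads over the 58 libraries, with 0 reads in 43 of them and a maximum of 8. PIA libraries held 0, 0, 0 and 4 reads of Il1a, against 6, 0, 0 and 3 in naive libraries. Il10, the anti-inflammatory cytokine of the set, totalled 43 reads, with 0 reads in 39 libraries and again a maximum of 8. PIA libraries held 2, 0, 0 and 5 reads of Il10, against 5, 1, 0 and 0 in naive libraries.

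No difference between arthritic and healthy synovium was detectable for either gene at this depth, where a count of 0 allows up to 3 reads in a library, counting error only. Two-sided exact permutation tests over 14 comparisons of groups gave no unadjusted p under 0.05 for either gene. The lowest, 0.0769, was for Il1a at 5 days, with a mean of 0.146 ± 0.414 normalized reads under RTD-1 and 2.11 ± 3.03 under saline (SD, n = 8 each). With 4 libraries a group the smallest p such a test can give is 0.0286, and tied counts of 0 raise that limit. For Il1a at 1 day the RTD-1 libraries held 1 read in total and the saline libraries 0, so no arrangement could have passed. With most libraries at 0 reads, these tests cannot show that the groups were alike.

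**Figure D2:**
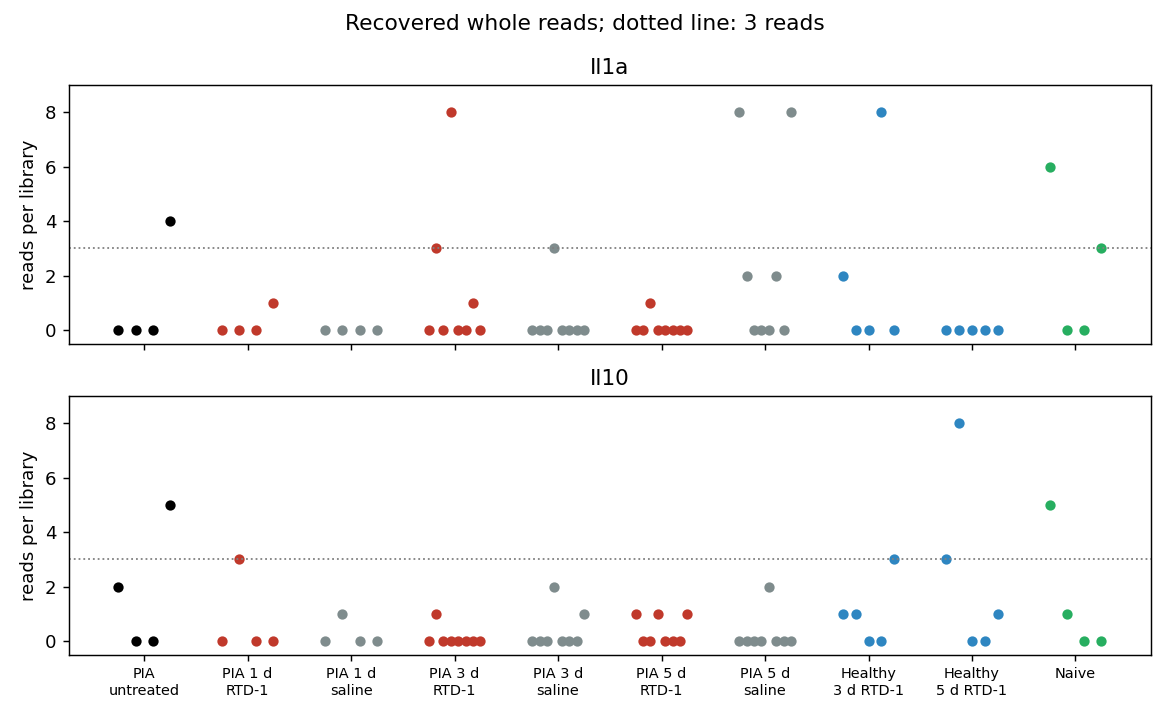
Whole reads of Il1a and Il10 in every library by group, with a dotted line at 3 reads. Over the 58 libraries 43 hold 0 reads of Il1a and 39 hold 0 reads of Il10, and none exceeds 8 of either.

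The question of the treatment arms was whether RTD-1 altered these transcripts relative to saline of the same duration. None of the 3 testable members passed the test at 1, 3 or 5 days or in the average over days. Few genes did in any of these comparisons, with 0% of genes called at 1 day, 0.00766% at 3 days, 0% at 5 days and 0% in the average. Among all genes 612, 1010 and 470 had an unadjusted p under 0.05 at 1, 3 and 5 days, and 760 did in the average.

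After 1 day the point estimates of all 3 members were above saline. Il1rn had 215, 205, 161 and 170 normalized reads under RTD-1, against 149, 133, 148 and 152 under saline. The 4 RTD-1 libraries all exceeded the 4 saline libraries, which held for 3.29% of all genes in one direction or the other. The log2 difference was small at 0.36 (95% interval -0.78 to 1.49, limma adjusted p = 0.938). The interval rests on 1 estimate of spread for all 10 groups, while the log2 SD was 0.20 under RTD-1 and 0.08 under saline. With only these groups in the fit the limma adjusted p was 0.808.

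Il1b after 1 day had 201, 232, 144 and 183 normalized reads under RTD-1, against 127, 137, 181 and 113 under saline, a log2 difference of 0.45 (limma adjusted p = 0.921). Il6 had 284, 32, 135 and 179 under RTD-1, against 139, 55.1, 169 and 75.3 under saline, a difference of 0.30 (95% interval -1.69 to 2.29, limma adjusted p = 0.975). Both genes overlapped between arms, and Il6 was spread widely enough within each arm that changes of several-fold lie inside its interval. The median gene was 0.16 higher under RTD-1 at 1 day, and with TMM factors, which remove that shift, the differences were 0.28 for Il1b, 0.19 for Il1rn and 0.13 for Il6.

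After 3 days the antagonist Il1rn showed the widest separation of any member between arms, although it did not pass the test. It ran from 77.3 through a median of 97.7 to 175.7 normalized reads under RTD-1, against 15.9, 61.8 and 118.3 under saline. The lowest RTD-1 library lay above 4 of the 8 saline libraries, and the 4 lowest values all belonged to saline. Means were 112.7 ± 38.1 under RTD-1 and 62.9 ± 39.9 under saline (SD, n = 8 each), and the log2 difference was 1.10 (SE 0.4, 95% interval 0.30 to 1.90, unadjusted p = 0.00824, limma adjusted p = 0.444).

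Its agonist Il1b at 3 days ran from 77.4 through 96.5 to 297.1 normalized reads under RTD-1, against 31.7, 92 and 149.3 under saline, a log2 difference of 0.48 (95% interval -0.25 to 1.21, limma adjusted p = 0.803). Il6 ran from 20.2 through 48.9 to 116.1 under RTD-1, against 13.4, 46.8 and 130.1 under saline, a difference of 0.26 (limma adjusted p = 0.955). The medians of both genes were close between arms and their ranges overlapped.

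After 5 days all 3 point estimates lay below saline. Il6 ran from 0 through a median of 27.4 to 151.8 normalized reads under RTD-1, against 12.5, 50.3 and 261.9 under saline, a log2 difference of -1.20 (95% interval -2.61 to 0.21, limma adjusted p = 0.998). Il1rn ran from 6.83 through 57.7 to 119.2 under RTD-1, against 27.8, 84.6 and 99.7 under saline, a difference of -0.55 (95% interval -1.35 to 0.26, limma adjusted p = 0.998). Il1b ran from 14.5 through 106.3 to 122.1 under RTD-1, against 45.7, 111.5 and 152.5 under saline, a difference of -0.28 (95% interval -1.01 to 0.45, limma adjusted p = 0.998).

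The low end of the 5-day RTD-1 group was the same 2 libraries for all 3 genes. Replicates 1 and 2 had 14.5 and 36.5 normalized reads of Il1b, 6.83 and 13.3 of Il1rn, and 0 and 2.81 of Il6. No saline library at 5 days was as low in any of these genes. Without replicate 1 the log2 differences from saline were 0.04 for Il1b, -0.19 for Il1rn and -0.57 for Il6, and without replicate 2 they were -0.14 for Il1b, -0.32 for Il1rn and -0.85 for Il6. Replicates 1 and 2 had 2265181 and 2870646 reads in genes, and the cause of their low values was not tested.

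The 8-library groups hold replicates numbered 1 to 4 and 5 to 8, and these sets did not give the same picture. At 5 days the log2 differences in replicates 1 to 4 were -0.86 for Il1b, -1.52 for Il1rn and -2.44 for Il6. In replicates 5 to 8 they were 0.31 for Il1b, 0.43 for Il1rn and 0.04 for Il6. At 3 days replicates 1 to 4 gave 1.11 for Il1b, 1.58 for Il1rn and 0.93 for Il6.

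In replicates 5 to 8 at 3 days the same differences were -0.14 for Il1b, 0.61 for Il1rn and -0.40 for Il6. Il1rn at 3 days was the only one of these 6 differences whose direction held in both sets. None passed the test in either set, the difference between sets was not tested, and the labels do not say what the numbering stands for.

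**Figure D3:**
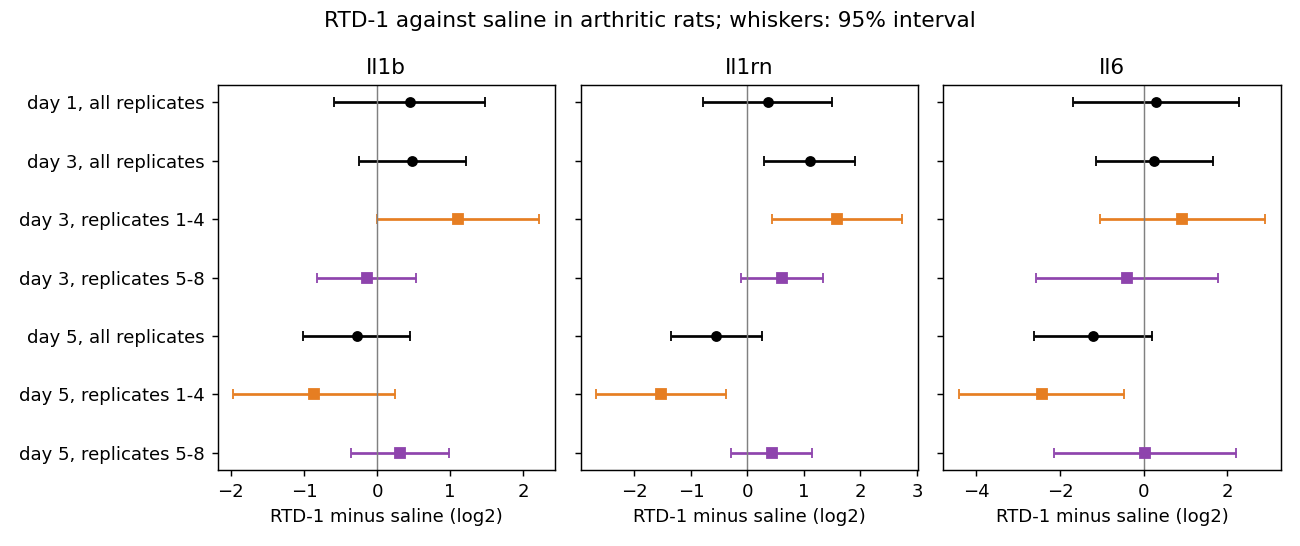
Log2 difference of RTD-1 minus saline, with its 95% interval, for Il1b, Il1rn and Il6 at each day. Circles use all replicates and squares use replicates 1 to 4 or 5 to 8 alone. At 5 days the estimates are below 0 with all replicates and in replicates 1 to 4, and at or above 0 in replicates 5 to 8.

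Whether the RTD-1 effect differed between days was tested directly. No member passed for day 3 against day 1, where 0.00766% of genes did, for day 5 against day 1, with 0% of genes, or for day 5 against day 3, with 0%. The largest departure was that of Il1rn, whose difference at 5 days was below that at 3 days by a log2 of -1.64 (SE 0.565, unadjusted p = 0.00536, limma adjusted p = 0.482). Genes with an unadjusted p under 0.05 numbered 627 for day 5 against day 1 and 917 for day 5 against day 3.

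Set against untreated PIA libraries, the cytokines stayed high for 1 day and their point estimates were lower later. The difference passed the test only in the 5-day RTD-1 group. All comparisons in this series share the same 4 untreated libraries. After 1 day no member passed under RTD-1, with 0% of genes called, or under saline, with 0%. The log2 differences under RTD-1 were 0.04 for Il1b, 0.48 for Il1rn and -0.52 for Il6, and those under saline were -0.40 for Il1b, 0.13 for Il1rn and -0.81 for Il6. Genes with an unadjusted p under 0.05 numbered 273 under RTD-1 and 699 under saline.

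After 3 days no member passed in either arm, where 0.00766% of genes did under RTD-1 and 0.0153% under saline. Il6 was below every untreated library in 8 of 8 RTD-1 libraries, with a log2 difference of -1.83 (limma adjusted p = 0.556), and in 7 of 8 saline libraries, with -2.09 (limma adjusted p = 0.244). Separation without overlap in the RTD-1 arm held for 0.467% of all genes. The median gene lay at -0.17 under RTD-1 and -0.14 under saline. Il1b differed by -0.58 under RTD-1 and -1.06 under saline. Il1rn differed by -0.30 under RTD-1 and by -1.40 under saline (unadjusted p = 0.00606, limma adjusted p = 0.179).

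After 5 days of RTD-1, 3 of the 3 testable members were lower than in untreated PIA, where 12.7% of all genes changed and 11.3% were lower. Il6 averaged 46.7 ± 53.6 normalized reads in the RTD-1 group (SD, n = 8) and 187.6 ± 87.3 in untreated PIA (SD, n = 4), a log2 difference of -3.06 (SE 0.858, limma adjusted p = 0.0158). This was the lowest log2 difference of the 13062 genes in that comparison, and it ranked between 1 and 4 over all alternatives tried. The ranking is by size alone and takes no account of the SE. Against the same untreated libraries Il6 also ranked 6 from lowest after 3 days of saline and 41 after 5 days of saline. After 3 days of RTD-1 it ranked 15. Il1rn averaged 55.8 ± 35.8 under RTD-1 and 138.4 ± 46.8 in untreated PIA, a log2 difference of -1.64 (SE 0.489, limma adjusted p = 0.022). Il1b averaged 86.3 ± 40.5 under RTD-1 and 197.1 ± 93.7 in untreated PIA, a difference of -1.31 (SE 0.446, limma adjusted p = 0.0422).

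In each of the 3 genes 7 of the 8 RTD-1 libraries lay below every untreated library. Over all genes, 7.5% met the stricter condition of no overlap between these groups, in one direction or the other. The share of genes with 7 of 8 libraries below was not counted. The calls were fragile: with TMM factors, which bring the median gene's shift of -0.24 to 0.01, only Il6 passed (-2.82, limma adjusted p = 0.0259), 684 genes were higher and 585 lower, against 174 and 1482 without them, and none passed when only the compared groups entered the fit. Without untreated replicate 4 none passed, and without untreated replicate 1 or 2 or RTD-1 replicate 1 or 2 only 1 member did.

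After 5 days of saline none of the 3 passed against untreated PIA, where 8.37% of genes did and the median gene lay at -0.22. The log2 differences were -1.86 for Il6 (limma adjusted p = 0.158), -1.10 for Il1rn (0.144) and -1.04 for Il1b (0.128), each with an unadjusted p under 0.05, as 3398 of the 13062 genes had. Il1rn lay below every untreated library in 8 of 8 saline libraries, a separation found in 2.77% of all genes. The direct comparison of the arms at 5 days, given above, did not pass for any member, so the pass under RTD-1 and its absence under saline do not show that the arms differ.

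At 5 days the 3 cytokines were still well above naive synovium in both arms. Under RTD-1, 3 of 3 were higher, where 25.6% of genes changed and 14.5% were higher. The log2 differences were 4.28 for Il1b (limma adjusted p = 1.06e-10), 2.86 for Il1rn (8.25e-06) and 3.62 for Il6 (0.00103). Under saline, 3 of 3 were higher, where 27.1% of genes changed and 16.5% were higher, with 4.56 for Il1b (limma adjusted p = 1.53e-11), 3.41 for Il1rn (2.34e-07) and 4.82 for Il6 (1.67e-05).

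Every arthritic library at 5 days exceeded every naive library for Il1b in both arms. Over all genes, 13.4% under RTD-1 and 12.6% under saline had no overlap with naive libraries. Under RTD-1, 7 of 8 libraries did so for Il1rn and 6 of 8 for Il6, the exceptions being among replicates 1 and 2. The Il6 call against naive was lost with limma voom on whole reads in both arms, with adjusted p of 0.326 under RTD-1 and 0.119 under saline. Under RTD-1 it was also lost with only the compared groups in the fit, at 0.0667, and in replicates 1 to 4, at 0.0687.

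In healthy rats given RTD-1, Il1b, Il1rn and Il6 were all near the read floor, and no member passed the test against naive rats. Calls were made for 11.8% of genes at 3 days and 13.5% at 5 days, in libraries that were all deeper than the naive ones. The median gene was 0.30 higher at 3 days and 0.34 higher at 5 days on the log2 scale, and 0.03 and 0.04 higher with TMM factors. Called genes were mostly higher, 1456 against 90 lower at 3 days and 1684 against 80 at 5 days, but with TMM factors 441 against 274 and 425 against 227.

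Il1b came nearest to a call. It had 8.02, 11.4, 13.8, 3.77 and 9.57 normalized reads in healthy rats after 3 days of RTD-1, against 1.78, 2.88, 0.998 and 8.33 in naive rats. Of the 5 healthy RTD-1 libraries, 3 exceeded every naive library. The log2 difference was 1.36 (95% interval 0.38 to 2.34, limma adjusted p = 0.0588), and whether it passed depended on the settings, with 4 of 19 alternatives passing and adjusted p from 0.0304 to 0.479. With TMM factors, which take out most of the shift of the median gene, the difference was 1.10 (limma adjusted p = 0.188), and the part of depth was not tested.

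After 5 days Il1b had 3.29, 9.58, 5.08, 3.73 and 6.84 normalized reads in healthy RTD-1 rats, a log2 difference from naive of 0.75 (limma adjusted p = 0.312). Il1rn ran from 3.21 to 10.9 at 3 days and from 2.35 to 7.23 at 5 days, against 1.92 to 8.33 in naive rats. Il6 had 2, 7, 0, 0 and 1 whole reads at 3 days and 5, 3, 4, 0 and 2 at 5 days, against 0, 8, 0 and 0 in naive rats. Both genes overlapped with the naive range.

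Ordered by mean log2 level over the 10 groups, each gene showed the same outline of early arthritic groups at the top, 5-day RTD-1 lowest among the arthritic groups, and healthy groups at the bottom. Il1b ran through 7.56 (1 day of RTD-1), 7.51 (untreated PIA), 7.11 (1 day of saline), 6.93 (3 days of RTD-1), 6.47 (5 days of saline), 6.45 (3 days of saline) and 6.20 (5 days of RTD-1). It then dropped to 3.27 and 2.66 in healthy rats after 3 and 5 days of RTD-1 and 1.91 in naive rats. Neighbours in this order overlapped, with 1 exception, the step between 5-day RTD-1 PIA and 3-day RTD-1 healthy rats. The 5-day RTD-1 means include the low replicates 1 and 2 of that group. By median normalized reads that group was also lowest among the arthritic groups for Il1rn (57.7) and Il6 (27.4). For Il1b it was not, since its median of 106.3 lay above those after 3 days of RTD-1 (96.5) and of saline (92).

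Il1rn was led by 1 day of RTD-1 at 7.55 and 1 day of saline at 7.19, the only neighbours in its order whose libraries did not overlap. Untreated PIA followed at 7.07, and the arthritic groups ended with 5 days of RTD-1 at 5.43. Il6 was led by untreated PIA at 7.46, and its arthritic groups also ended with 5 days of RTD-1, at 4.40. All neighbours in the Il6 order overlapped.

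Agonist and antagonist were also set against each other within each library. The log2 difference of Il1rn minus Il1b within a library had medians of -0.00, 0.03 and -0.84 after 1, 3 and 5 days of RTD-1, against 0.09, -0.68 and -0.47 after the same days of saline. Its median was -0.44 in untreated PIA, and single arthritic libraries ran from -2.19 to 0.42. In the healthy groups, where both genes were near the read floor, the median was 0.66 in naive rats. After 3 and 5 days of RTD-1 in healthy rats it was -1.10 and -0.14. These differences are not per transcript length, so they compare groups and not the 2 genes. They are given with no test, and the ranges of all arthritic groups overlapped.

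Within groups, libraries that were high in 1 of the 3 cytokines tended to be high in the others. After each library's value was taken as its deviation from its own group mean, Il1b and Il1rn in the 44 arthritic libraries had a Pearson r of 0.84 and a Spearman rho of 0.82 (permutation p = 1e-05 each, the smallest that 100000 permutations within groups can give, adjusted p = 0.0001 over 10 pairs of members). Il1b and Il6 had r = 0.71 and rho = 0.67 (permutation p = 3e-05 and 2e-05, adjusted 0.00015 and 0.0001). Il1rn and Il6 had r = 0.63 and rho = 0.51 (permutation p = 0.00046 and 0.00181, adjusted 0.00153 and 0.00603).

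Leaving out the 2 libraries farthest from the median of the first gene of each pair gave r = 0.75 for Il1b with Il1rn, 0.69 for Il1b with Il6 and 0.57 for Il1rn with Il6. In replicates 1 to 4 (n = 28) r was 0.84 for Il1b with Il1rn, 0.62 for Il1b with Il6 and 0.58 for Il1rn with Il6, of which the first passed with permutation tests adjusted over the 10 pairs. In replicates 5 to 8 (n = 16) r was 0.80 for Il1b with Il1rn, 0.86 for Il1b with Il6 and 0.53 for Il1rn with Il6, of which only Il1b with Il6 passed. Values of 1 library share its scaling factor and its mix of cells, whose part in the relation was not tested.

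The pairs with Il10 had r between -0.21 and 0.14. Those of Il1a with Il1b, Il1rn and Il6 had r of 0.29, 0.30 and 0.23. Of these Il1a with Il1rn passed (permutation tests adjusted over the 10 pairs, p = 0.0466 for r and 0.0362 for rho), but not with a pseudocount of 8 (0.0652 and 0.0503), and with most libraries at 0 reads of Il1a it is not read as a relation.

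**Figure D4:**
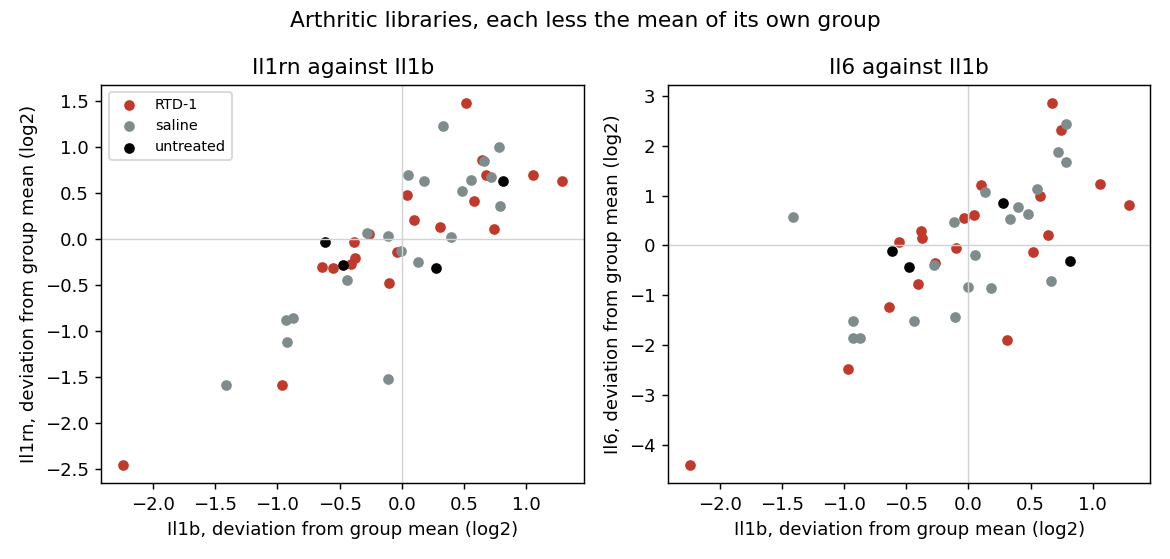
Deviation from the group mean, on the log2 scale, of Il1rn and of Il6 against that of Il1b in the 44 arthritic libraries, with RTD-1, saline and untreated libraries in separate colours. Points rise from lower left to upper right, with r = 0.84 for Il1rn and r = 0.71 for Il6, and 1 library of the 5-day RTD-1 group lies farthest to the lower left in both panels.

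The level profiles over the 10 group means were shared by many other genes. The gene whose profile was most like that of Il1b was ENSRNOG00000000123, with r = 0.996, and that most like Il1rn was ENSRNOG00000019128, with r = 0.997, among 8426 candidates averaging 5 or more on the log2 scale. Both are given by identifier because no symbol was paired with them. Il1rn itself ranked 156 in likeness to Il1b, with r = 0.979. Il6 averaged under 5 and was not a candidate, and its r of 0.977 would place it at 187. These correlations across 10 groups, 7 of them arthritic, are given as descriptions.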

How the data were processed

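Stranded total RNA libraries from 58 synovial samples were read as 75-nt single reads, per the labels' protocols. The submitters' processing notes name HISAT and DESeq, with no version. For settings, annotation and genome build, nothing is given in the sources used here. Values in the deposited table are log2 of whole reads times 1 factor per library, per the file's own values, and 0 reads stand as 0.9 of a read. Undoing this gave whole reads for 100% of values above 0 (relative tolerance 0.001). A row without an identifier, at most 0.0137% of reads, was left out.

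The test had been planned for normalized reads; as the values proved to be log2, it was applied after undoing the logarithm. limma 3.58.1 in R 4.3.3 (trend and robust) took log2(normalized reads + 1) in a single model of 10 group means, and fold changes are on that scale, which understates changes of low genes. Genes with a two-sided adjusted p under 0.05 were called. Il1a and Il10, below the filter, were compared by exact permutation tests on normalized reads.

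Groups and replicate numbers came from sample titles. The labels do not say which libraries came from which animals, so p-values measure the spread between libraries, which may be partly technical. Replicate pairs differed by more than sampling noise (chi-square per degree of freedom at least 2.48). Same-numbered libraries were not treated as pairs.

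The members and lists were chosen with earlier results of these data known. All 6 members are named, and for a well-measured member the gene with the most similar group means, at most 2 without a symbol. Sequences are from RefSeq (GRCr8), matched by symbol, and 0 identifiers were paired with a symbol by the reference. Alternatives were pseudocounts of 0.5 and 8, no filter, a filter of 50 normalized reads, TMM factors, only the compared groups, a replicate block, only replicates 1 to 4 or only 5 to 8, and omission of each library in turn. limma voom on recovered reads and leaving out the 3 deeper saline libraries were added after seeing the data.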

Additional observations from a re-analysis of the deposited data

Results flagged for a closer look

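Il6 in naive replicate 2 stood apart from the other naive libraries, with 7.69 normalized reads (8 whole reads) against 0 in each of the other 3. Over 30 groups of member values examined, this was 1 library singled out. Chance alone flags about 1 in 20 groups of normally spread values, which counts near 0 are not. A group with reads in 1 library and 0 in all others is always flagged, so this flag carries little weight.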

How the results depend on the processing

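Of 1371 recomputed member changes, 1292 kept their direction and their side of the threshold, 22 lost a call, 5 gained one and 52 changed sign. The increases of Il1b, Il1rn and Il6 in PIA over naive were called in 18 of 18 alternatives each. Against untreated PIA, 3 members were called after 5 days of RTD-1; this became 1 with TMM factors, 0 with only the compared groups in the fit, and 0 to 3 when single libraries were left out. After 5 days of saline, 1 member (Il6, -1.97) was called with voom. In healthy rats after 3 days, 1 (Il1b) was called with a pseudocount of 0.5 or a filter of 50 normalized reads, and 0 to 1 when single libraries were left out.

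Sign changes touched no called result. In replicates 5 to 8, RTD-1 minus saline turned to -0.14 for Il1b and -0.40 for Il6 at 3 days and to 0.31 for Il1b, 0.43 for Il1rn and 0.04 for Il6 at 5 days, and the change of effect from day 3 to day 5 to 0.45 for Il1b and 0.44 for Il6. With TMM factors the sign turned for healthy RTD-1 against naive in Il1rn at 3 days (-0.12) and Il6 at 5 days (-0.01), and for the day 3 minus day 1 effect of Il6 (0.14). Replicates 1 to 4 turned Il1rn in healthy rats at 3 days (-0.12) and the day 3 minus day 1 effect of Il6 (0.63). Voom turned Il6 in healthy rats at 5 days (-0.04) and brought that day 3 minus day 1 effect to 0.00, and leaving out the deeper saline libraries gave 0.32 for it. A pseudocount of 0.5 gave 0.06 for Il6 in healthy rats at 3 days and one of 8 gave -0.08 at 5 days.

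Leaving out single libraries gave, for RTD-1 against saline, -0.11 to 0.93 for Il6 at 1 day and, at 5 days, -0.41 to 0.04 for Il1b, -0.76 to -0.19 for Il1rn and -1.61 to -0.57 for Il6. For 1 day of RTD-1 against untreated PIA it gave -0.16 to 0.32 for Il1b and -0.92 to 0.12 for Il6. For healthy RTD-1 against naive it gave -0.23 to 0.32 for Il1rn and -0.44 to 0.72 for Il6 at 3 days, and -0.42 to 0.14 for Il1rn and -0.13 to 0.91 for Il6 at 5 days. For the day 3 minus day 1 effect it gave -0.16 to 0.15 for Il1b and -0.67 to 0.37 for Il6. The cause was not tested in any of these.

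Relations between members no longer passed, with fewer libraries, in replicates 5 to 8 for Il1b with Il1rn (0.80) and Il1rn with Il6 (0.53), and in replicates 1 to 4 for Il1b with Il6 (0.62) and Il1rn with Il6 (0.58). Correlations between same-numbered libraries ran from -0.21 to 0.28 over the comparisons, and in none did every pair exceed 0.1. With the replicate block, Il1b after 5 days of RTD-1 against untreated PIA was -1.34 (limma adjusted p = 0.078), 2 of 3 members passed, and 986 genes were called against 1656 without it.

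Counts over all genes moved by over 1.5 times under these settings. Healthy RTD-1 against naive gave 715 genes at 3 days and 652 at 5 days with TMM factors, against 1546 and 1764. Saline at 5 days against untreated PIA gave 158 with only the compared groups, 673 with the block and 68 in replicates 1 to 4, against 1093. Saline at 3 days against untreated PIA gave 0 to 81, against 2. The day 5 minus day 3 effect gave 84 in replicates 1 to 4, against 0, with no member among them. Leaving out single libraries gave 549 to 1934 genes for 5 days of RTD-1 against untreated PIA, against 1656, with 810, 615 and 549 without untreated replicates 1, 2 and 4 and 1026 without RTD-1 replicate 1. For 5 days of saline it gave 250 to 2002, with 501, 250 and 274 without untreated replicates 1, 2 and 4, 727, 541 and 691 without saline replicates 5, 7 and 8, and 2002 without saline replicate 4. For healthy RTD-1 against naive it gave 624 to 2425 at 3 days and 803 to 2763 at 5 days, the lowest without naive replicate 4 and the highest without naive replicate 3. The shares of called genes printed beside these comparisons move accordingly.

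Depth limits Il1a and Il10 everywhere, and all members in healthy synovium: 3 reads correspond to between 2.67 and 3.12 normalized reads in naive libraries.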
